A study of Mus musculus with 12 samples.

Results

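The EGF family ligands and receptors were followed in whole-kidney RNA-seq libraries from WT and Tet2-/- mice, as 10 genes chosen by name: the ligands Egf, Hbegf, Areg, Ereg, Tgfa, Btc and Nrg1 and the receptors Egfr, Erbb2 and Erbb3. They were taken from 24421 gene symbols in the deposited files, each symbol being represented by its transcript with the highest total count. All mice were males of about 6 weeks, C57BL/6 by the labels and on a C57BL/6J background by the methods. The 12 libraries form 4 groups of 3: WT baseline and Tet2-/- baseline kidneys from mice that had no operation, and WT IR and Tet2-/- IR kidneys taken 24 h after the right renal pedicle had been clamped for 60 min (ischemia-reperfusion, IR). The left kidney of the IR mice was removed in the same operation, and no sham-operated kidney is among the libraries, so in these data ischemia, surgery and loss of the other kidney cannot be told apart. The labels name no promoter that would limit the knockout to the kidney, so as labelled it also covers blood cells.

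Ligands of this family are made as membrane-anchored precursors that proteases cut from the cell surface. A released ligand pairs EGF receptor with itself or with ERBB2 or ERBB3, and the paired receptors signal through RAS and ERK, through PI3 kinase and AKT, and through STAT3. In the kidney, Egf is made by the thick ascending limb and the distal convoluted tubule and is shed into urine, while HB-EGF, amphiregulin, epiregulin and TGF-alpha are known as ligands that injured epithelium can induce. Neuregulin 1 signals through ERBB3 and its partners rather than through EGF receptor.

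Totals over the transcripts used ran from 51007363 to 107969883 counts per library. The targeted gene did not follow its label at baseline: Tet2 FPKM (read fragments scaled by transcript length and library size) was 9.15, 6.25 and 7.33 in the WT baseline libraries and 9.245, 16.6 and 10.3 in the libraries labelled Tet2-/- at baseline. After IR it was 9.34, 3.97 and 3.855 in WT libraries and 2.64, 3.20 and 1.76 in the libraries labelled Tet2-/-. These are totals over the whole transcript and do not show a deleted exon. The genotype is therefore given below as the label has it, and "the library labelled Tet2-/-" is meant wherever a direction is drawn from it. Some libraries stand apart. Summed adipocyte marker FPKM (8 genes) was 135 and 277 in WT baseline libraries 2 and 3 and 608 in Tet2-/- IR library 3, against 17.0 to 116 in the other 9 libraries. Tet2-/- IR library 3 also had the lowest summed level of thick ascending limb markers (442 FPKM, against 849 to 2713 elsewhere), and WT IR library 1 had the lowest tubular injury marker level of the IR libraries (1676 FPKM, against 5942 to 25987 in the other 5). WT IR library 3 had the lowest summed podocyte (3.23 FPKM, against 13.7 to 87.8), endothelial (5.26, against 23.1 to 92.3) and fibroblast and stromal marker levels (9.57, against 26.6 to 75.2).

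Ereg, Areg and Btc lie near each other on mouse chromosome 5 together with Epgn, a further ligand of the family, all 4 within 375 kb. In mm9 coordinates the files place Ereg at chr5:91503643-91522675, Areg at chr5:91568625-91577458 and Btc at chr5:91786287-91832020, while Egf lies on the minus strand at chr3:129380495-129458240. The 250 bases before the start of Areg and before both annotated starts of Egf are shown because, of the 4 groups, the Tet2-/- IR kidneys had the highest Areg and the lowest Egf levels. The sequences come from RefSeq's annotation of GRCm38.p6, a later build than that of the files, and an entry was matched for 6 of the 10 genes. In the Areg sequence, capitals mark TGACGTCA, the cyclic AMP response element, at bases 61 to 54 before the start, and TATAAA, the TATA box, at bases 31 to 26 before it.
Areg, GRCm38.p6, plus strand, chr5:91139349-91139598: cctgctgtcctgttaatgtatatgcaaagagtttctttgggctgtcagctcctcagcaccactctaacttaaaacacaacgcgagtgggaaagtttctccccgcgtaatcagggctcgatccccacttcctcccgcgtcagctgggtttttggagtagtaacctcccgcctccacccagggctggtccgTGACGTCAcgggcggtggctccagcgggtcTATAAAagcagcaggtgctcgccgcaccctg
Egf, GRCm38.p6, minus strand, chr3:129755323-129755572: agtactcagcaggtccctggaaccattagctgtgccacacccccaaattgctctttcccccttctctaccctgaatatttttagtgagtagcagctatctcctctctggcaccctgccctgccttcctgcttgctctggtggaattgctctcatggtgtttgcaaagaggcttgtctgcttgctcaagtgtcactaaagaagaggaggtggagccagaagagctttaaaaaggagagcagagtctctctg
Egf, second start, GRCm38.p6, minus strand, chr3:129725087-129725336: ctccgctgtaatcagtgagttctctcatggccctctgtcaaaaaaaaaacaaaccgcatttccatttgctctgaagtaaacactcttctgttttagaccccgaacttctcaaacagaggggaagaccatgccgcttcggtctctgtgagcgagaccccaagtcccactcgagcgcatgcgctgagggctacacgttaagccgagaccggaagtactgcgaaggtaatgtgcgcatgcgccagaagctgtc
Over all 32851 promoter windows of this length, searched on both strands, TGACGTCA occurred in 1.55% and TATAAA in 12.4%. The Areg window also held GGGCGG at bases 52 to 47 before the start, a string found in 32.7% of windows, and the matches did not overlap. Neither Egf window held any of the 5 strings searched, which also included TGANTCA (6.75% of windows) and CCAAT (33.8%), and this says only that these letters are not in these windows.

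Egf was by far the most abundant ligand transcript of the unoperated kidney, and it was lowest in the Tet2-/- IR kidneys. Its FPKM was 182, 67.2 and 353 in WT baseline libraries 1 to 3 and 125, 204 and 118 in the Tet2-/- baseline libraries. After IR it was 101, 62.4 and 56.4 in the WT group, and 26.4, 13.2 and 2.82 in the Tet2-/- group. The 3 Tet2-/- IR libraries thus lay below every other library, while WT baseline library 2 lay within the range of the WT IR libraries. In Tet2-/- kidneys Egf fell 12.7-fold after IR (log2 fold change -3.67, SE 0.72, edgeR quasi-likelihood test with Benjamini-Hochberg adjustment over all genes tested, adjusted p = 0.00578). Without Tet2-/- IR library 1, the highest of its group, the log2 fold change was -4.56 (edgeR, adjusted p = 0.00439), and without Tet2-/- IR library 3, the lowest, it was -3.19 (edgeR, adjusted p = 0.00199). In WT kidneys the log2 fold change was -1.54 (SE 0.56, edgeR, adjusted p = 0.169), which did not pass the test, and without WT baseline library 3, the highest of all libraries, it was -0.83 (edgeR, adjusted p = 0.310). After IR Egf was -2.48 in Tet2-/- against WT kidneys on the log2 scale (SE 0.70, edgeR, adjusted p = 0.0696), and this did not pass the test, although the groups did not overlap. Without Tet2-/- IR library 1 this value was -3.34 (edgeR, adjusted p = 0.0614). Over 18 alternatives by edgeR, DESeq2 or limma it ran from -3.34 to -1.73 (adjusted p from 0.000811 to 0.180), and 3 of them called Egf. The difference between the responses of the genotypes, the genotype by IR interaction, was -2.08 on the log2 scale (SE 0.98, edgeR, adjusted p = 0.195) and did not pass either, nor did it without WT baseline library 3 (-2.79, edgeR, adjusted p = 0.116) or Tet2-/- IR library 1 (-2.98, edgeR, adjusted p = 0.0873). In bulk tissue, fewer cells of a type and less RNA per cell cannot be told apart.

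**Figure D1:**
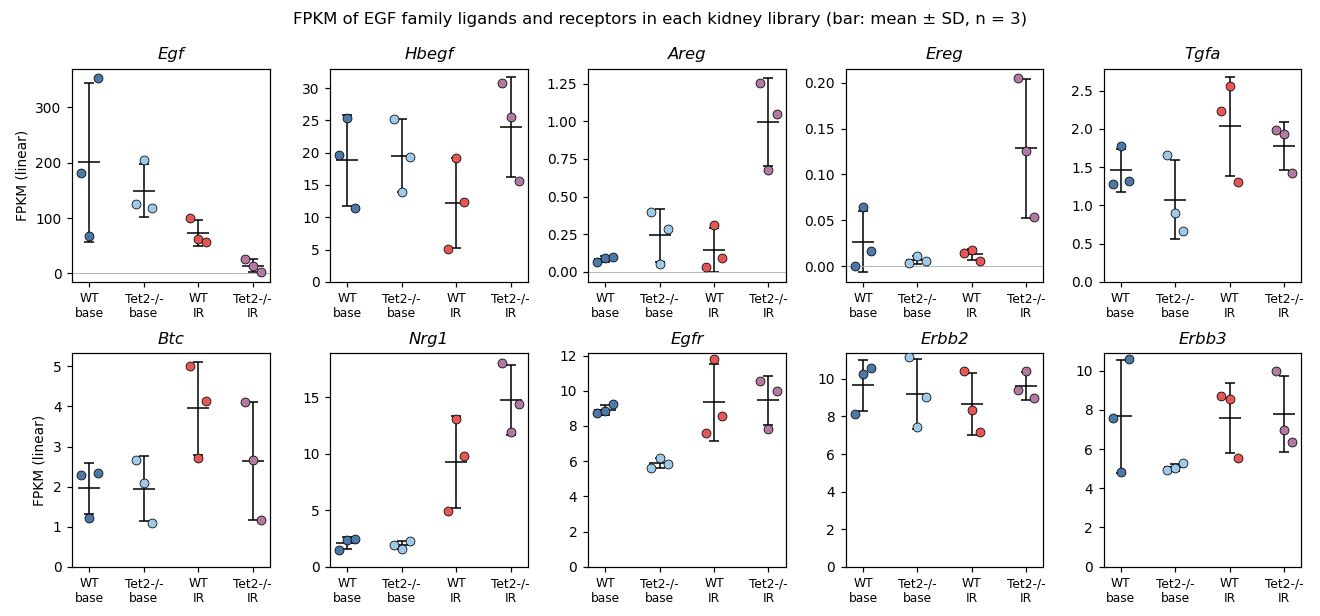
FPKM on a linear axis for each of the 10 genes in each of the 12 libraries, grouped as WT and Tet2-/- baseline and WT and Tet2-/- IR, with bars for the mean and SD of 3 libraries. Egf is 26.4 FPKM or lower in the Tet2-/- IR libraries and 56.4 or higher in all others. Areg is highest in the Tet2-/- IR libraries, Nrg1 is raised in both IR groups, which overlap, and Erbb2 stays between 7.19 and 11.1 throughout.

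Markers of the tubule segments that make Egf did not all move with it. Of 7 thick ascending limb markers, 0 rose and 2 fell in Tet2-/- kidneys after IR, where 12.7% of all genes tested were called higher and 11.6% lower. These 2 were Slc12a1, the sodium-potassium-chloride cotransporter of this segment (log2 fold change -2.05, SE 0.38, edgeR, adjusted p = 0.00455), and Ptger3, a prostaglandin receptor (-1.33, SE 0.43, edgeR, adjusted p = 0.0401). Umod, which encodes uromodulin and is the most abundant transcript of the list, had 2018, 2512 and 354 FPKM in the Tet2-/- IR libraries and 891, 1470 and 807 FPKM in the Tet2-/- baseline libraries. Its log2 fold change was 0.33 (SE 0.62, edgeR, adjusted p = 0.689), so only library 3 of the IR group was below the baseline libraries in both Umod and Egf. Of 7 distal convoluted tubule markers, Pvalb, the calcium-binding parvalbumin, fell (-3.94, SE 0.44, edgeR, adjusted p = 0.000549) and so did Calb1, calbindin (-1.24, SE 0.32, edgeR, adjusted p = 0.0170), while Slc12a3, the thiazide-sensitive cotransporter, did not pass (-0.39, SE 0.37, edgeR, adjusted p = 0.424). Without Tet2-/- IR library 3, Slc12a1, Pvalb and Calb1 were called and Ptger3 was not. In WT kidneys 0 of the 14 markers were called by edgeR, DESeq2 or limma, with 3 at an unadjusted p under 0.05. The part of cell composition in the Egf result was not tested.

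**Figure D2:**
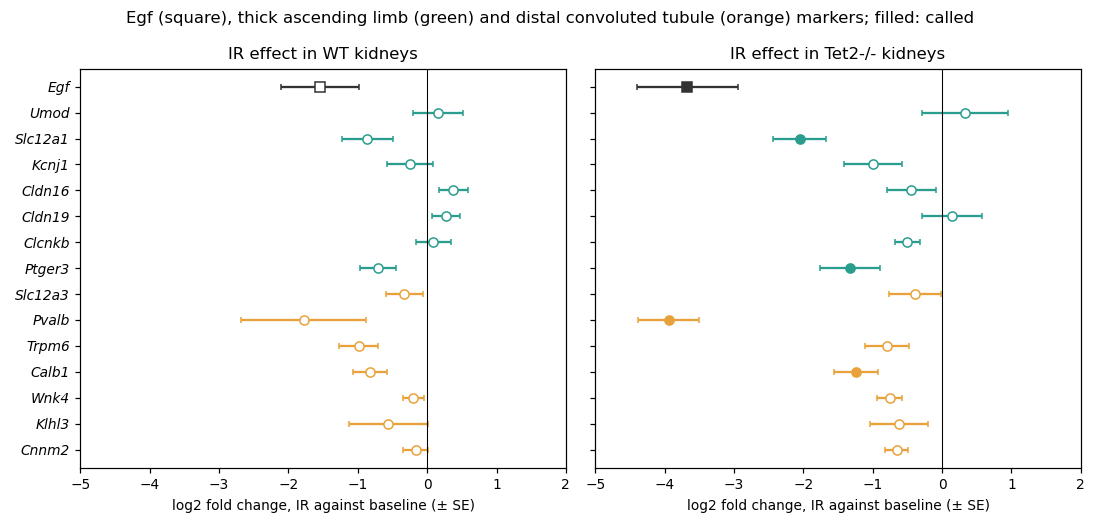
Log2 fold change of IR against baseline (x axis, with SE) for Egf (square), 7 thick ascending limb markers (green) and 7 distal convoluted tubule markers (orange) in WT and in Tet2-/- kidneys, filled where the gene was called. In Tet2-/- kidneys Egf (-3.67) and Pvalb (-3.94) lie far to the left of Umod (0.33), and no marker is filled in WT kidneys.

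Epiregulin (Ereg), a ligand of EGF receptor and ERBB4 that is nearly silent in kidney, rose in Tet2-/- IR kidneys from a level close to 0. It had 94, 67 and 21 counts in the Tet2-/- IR libraries (0.205, 0.126 and 0.054 FPKM) and 1, 7 and 2 counts in the Tet2-/- baseline libraries. WT libraries had 0, 26 and 6 counts at baseline and 4, 6.5 and 2 after IR. The Tet2-/- IR libraries were the highest of all except that WT baseline library 2 (0.064 FPKM) was above the lowest of them. Ereg was high enough to be tested only in the comparisons that include the Tet2-/- IR libraries. It was thus tested only where its highest group took part, and the p-values below carry that selection. Within Tet2-/- kidneys the fitted rise was 14.4-fold (log2 fold change 3.85, SE 0.68, edgeR, adjusted p = 0.00356), or 4.55 on the log2 scale without Tet2-/- baseline library 2 (edgeR, adjusted p = 0.0108). After IR Ereg was 9.56-fold higher in Tet2-/- than in WT kidneys (3.26, SE 0.64, edgeR, adjusted p = 0.0279). The interaction was 5.05 (SE 1.41, edgeR, adjusted p = 0.0476), and without WT baseline library 2 it was 3.28 (edgeR, adjusted p = 0.163). This call was kept without WT baseline library 1 or Tet2-/- IR library 3 and lost without any other single library, with log2 values of 3.28 to 5.70 and adjusted p of 0.0588 to 0.163 by edgeR. The call after IR was lost when any of WT IR libraries 1, 2 and 3 or Tet2-/- IR libraries 1 and 2 was left out, with log2 fold changes of 3.33, 3.51, 2.98, 2.73 and 3.31 and adjusted p of 0.0975, 0.0598, 0.0894, 0.0765 and 0.0615 by edgeR. These fold changes describe few counts and depend on edgeR's handling of counts near 0.

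Amphiregulin (Areg), a ligand of EGF receptor found at sites of tissue repair, was also highest in the Tet2-/- IR kidneys but did not pass the test. Its FPKM was 1.26, 0.679 and 1.05 in the Tet2-/- IR libraries and 0.398, 0.052 and 0.282 in the Tet2-/- baseline libraries. WT kidneys had 0.066, 0.092 and 0.102 at baseline and 0.036, 0.315 and 0.090 after IR. Each Tet2-/- IR library was above all 9 others. The log2 fold change was 1.82 (SE 0.66, edgeR, adjusted p = 0.0591) for IR in Tet2-/- kidneys and 2.69 (SE 0.73, edgeR, adjusted p = 0.0629) for genotype after IR. Without WT IR library 2, which had the highest Areg level of its group, the latter was 3.86 (edgeR, adjusted p = 0.0309). DESeq2 gave adjusted p of 0.0161 and 0.00227 for these comparisons.

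Markers of neutrophils were, like Areg and Ereg, highest in the Tet2-/- IR kidneys. The summed FPKM of these markers (7 genes) was 75.1 to 133 in Tet2-/- IR libraries, 4.03 to 9.44 in WT IR libraries and 0.609 to 2.78 in all baseline libraries. After IR 7 of 7 rose in Tet2-/- kidneys, beside 12.7% of all genes. Their sum was also higher in every WT IR library than in any WT baseline library, where Areg and Ereg overlapped. WT baseline library 2 had the lowest sum (0.609 FPKM) and, outside the Tet2-/- IR group, the most Ereg counts (26). S100a8, an abundant neutrophil transcript, had 47.2, 46.6 and 27.4 FPKM in the Tet2-/- IR libraries and 0.287 to 3.29 elsewhere. Summed tubular injury markers (8 genes) ran from 12038 to 25987 FPKM in Tet2-/- IR libraries, from 1676 to 7908 in WT IR libraries and from 228 to 540 at baseline. The part of either in the ligand results was not tested.

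Neuregulin 1 (Nrg1), the ligand of ERBB3 and ERBB4, was the ligand that rose after IR in both genotypes. Its FPKM was 1.46, 2.33 and 2.46 in WT baseline libraries and 4.94, 13.1 and 9.82 in WT IR libraries. In Tet2-/- kidneys it was 1.89, 1.57 and 2.27 at baseline and 18.05, 11.9 and 14.4 after IR. All 6 IR libraries were above all 6 baseline libraries. The rise was 4.27-fold in WT kidneys (log2 fold change 2.09, SE 0.39, edgeR, adjusted p = 0.0408) and 6.51-fold in Tet2-/- kidneys (2.70, SE 0.24, edgeR, adjusted p = 0.000251). Genotypes did not differ detectably after IR (0.58, SE 0.35, edgeR, adjusted p = 0.321), and the interaction was 0.65 (SE 0.48, edgeR, adjusted p = 0.407). The WT call was lost on leaving out any single WT baseline library or WT IR library 2 or 3, where the log2 fold change lay between 1.85 and 2.25 and 88 to 143 genes of all those tested were called, against 376 with every library. In the files Nrg1 is a single transcript on the minus strand of mm9, chr8:32928500-33028675, so its isoforms were not told apart.

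The remaining ligands did not pass the test in any comparison. Heparin-binding EGF-like growth factor (Hbegf) is a membrane-anchored ligand of EGF receptor and ERBB4. Of the 7 chosen ligands it was the most abundant besides Egf in all 12 libraries. Its FPKM was 19.7, 25.4 and 11.4 in WT baseline, 25.3, 13.97 and 19.3 in Tet2-/- baseline, 5.10, 19.2 and 12.4 in WT IR and 30.9, 25.5 and 15.6 in Tet2-/- IR libraries, and all 4 groups overlapped with their neighbours in level. After IR the genotype difference in Hbegf was 0.87 on the log2 scale (SE 0.45, edgeR, adjusted p = 0.254). Betacellulin (Btc), a ligand of EGF receptor and ERBB4, had 2.29, 1.23 and 2.35 FPKM in WT baseline and 5.02, 2.70 and 4.14 FPKM in WT IR libraries. These groups did not overlap, with a log2 fold change of 0.95 (SE 0.34, edgeR, adjusted p = 0.163). In Tet2-/- kidneys Btc ran from 1.08 to 2.67 FPKM at baseline and from 1.16 to 4.10 after IR, which overlap. Tgfa, encoding transforming growth factor alpha, ranged from 0.667 to 2.56 FPKM over all libraries, with log2 fold changes of 0.40 (SE 0.25, edgeR, adjusted p = 0.384) in WT and 0.48 (SE 0.33, edgeR, adjusted p = 0.271) in Tet2-/- kidneys after IR.

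As a share of the summed FPKM of the 7 ligands, Egf made up 88.0%, 68.5% and 95.2% in WT baseline and 79.7%, 91.7% and 83.3% in Tet2-/- baseline libraries. After IR the share was 85.3%, 62.3% and 67.0% in the WT group, and 31.9%, 23.6% and 7.72% in the Tet2-/- group. Hbegf was the most abundant of the other 6 ligands in each library, and in the Tet2-/- IR libraries it was more abundant than Egf in all 3. The other 6 ligands summed to 24.4 ± 6.62 FPKM in WT baseline, 24.7 ± 6.70 in Tet2-/- baseline, 27.6 ± 10.2 in WT IR and 44.3 ± 11.5 in Tet2-/- IR libraries (SD, n = 3). The share moved through both its parts, and no test was made of it.

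**Figure D3:**
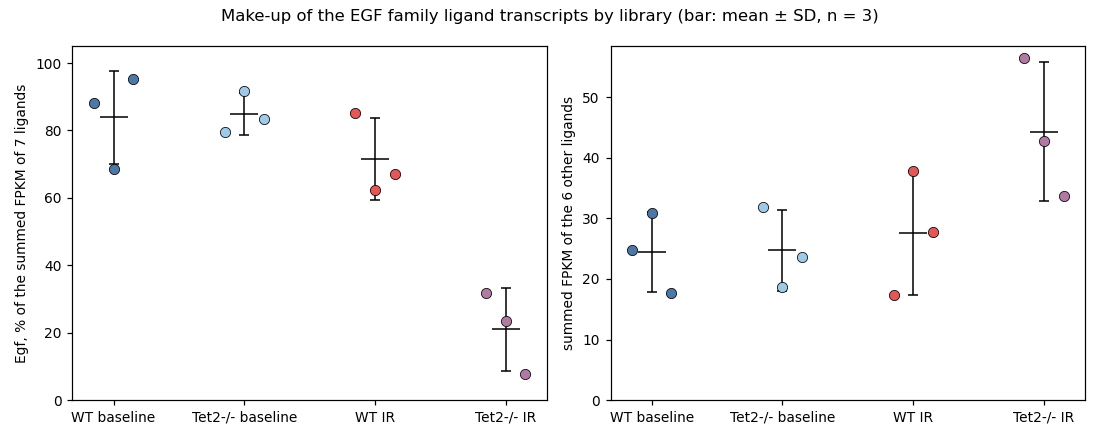
Left, Egf as a percentage of the summed FPKM of the 7 ligands, and right, the summed FPKM of the other 6 ligands, for each library in the 4 groups with mean and SD bars. The Egf share is 62.3% or more in 9 libraries and 31.9% or less in the Tet2-/- IR libraries.

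Receptor transcripts stayed between 4.82 and 11.8 FPKM in all libraries, and 0 of 3 was called in any comparison by edgeR or DESeq2, with an unadjusted p under 0.05 for Egfr alone, at baseline and for IR in Tet2-/- kidneys. Egfr, the receptor for most of these ligands, had 8.72, 8.83 and 9.24 FPKM in WT baseline libraries and 5.64, 6.19 and 5.81 in Tet2-/- baseline libraries. After IR it had 7.63, 11.8 and 8.58 FPKM in the WT group, and 10.5, 7.85 and 9.97 FPKM in the Tet2-/- group. The baseline groups did not overlap and each was narrow, and Egfr was 1.43-fold lower in Tet2-/- kidneys (log2 fold change -0.51, SE 0.097, unadjusted p = 0.00091 and adjusted p = 0.206 by edgeR), which did not pass over 16086 genes and lies under the limit on fold change. DESeq2 gave the same log2 fold change an adjusted p of 0.00308, and over 19 alternatives the log2 fold change was between -0.60 and -0.47. For IR in Tet2-/- kidneys the log2 fold change was 0.44 (SE 0.16, edgeR, adjusted p = 0.0631). Here the FPKM of the groups did not overlap, but with edgeR's TMM scaling, which corrects for the make-up of each library, Tet2-/- IR library 2 had a CPM (counts scaled to library size) of 55.1 and Tet2-/- baseline library 2 of 55.4, so the scaled groups did.

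Erbb2, which has no ligand of its own and serves as partner of the other receptors, stayed between 7.19 and 11.1 FPKM in all 12 libraries with every group overlapping its neighbour. Its fitted log2 fold change was -0.23 (SE 0.16, edgeR, adjusted p = 0.431) in WT and -0.20 (SE 0.15, edgeR, adjusted p = 0.323) in Tet2-/- kidneys after IR, and the latter sign depended on the scaling (0.0296 with library sizes alone). Erbb3, the neuregulin receptor with an impaired kinase, had 4.92, 5.03 and 5.28 FPKM in Tet2-/- baseline and 10.01, 6.95 and 6.38 FPKM in Tet2-/- IR libraries. These did not overlap, with a log2 fold change of 0.36 (SE 0.18, edgeR, adjusted p = 0.151). WT libraries ran from 4.82 to 10.6 FPKM at baseline and from 5.54 to 8.70 after IR. For Erbb3 the genotype difference at baseline was -0.51 (SE 0.26, edgeR, adjusted p = 0.481).

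**Figure D4:**
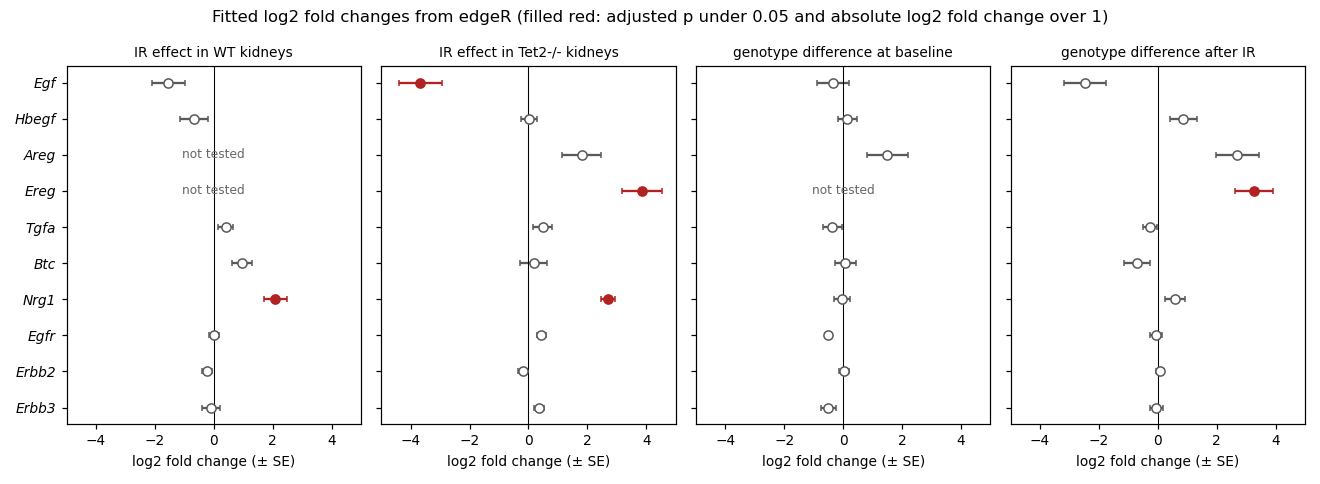
Fitted log2 fold change (x axis, with SE) of each of the 10 genes in 4 comparisons, red and filled where the gene was called (adjusted p below 0.05, log2 fold change beyond 1 in either direction). Nrg1 is filled for IR in WT kidneys, Egf, Ereg and Nrg1 for IR in Tet2-/- kidneys, Ereg for genotype after IR, and no gene at baseline.

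A gene counted as called when edgeR's adjusted p was below 0.05 and its log2 fold change was above 1 or below -1. By this rule IR called 1 gene higher and 0 lower of 8 tested in WT kidneys, where Areg and Ereg were too low to be tested. Of all 16015 genes tested there, 1.46% were called higher and 0.887% lower. In Tet2-/- kidneys 2 genes of 10 were called higher and 1 lower, against 12.7% higher and 11.6% lower of all 16358 genes. Between genotypes 0 of 9 tested genes were called at baseline, with 1 at an unadjusted p under 0.05 and 0 by DESeq2, against 0.0124% of all genes. After IR 1 of 10 was called higher and 0 lower in Tet2-/- kidneys, against 2.3% higher and 3.85% lower. The interaction was called for 1 of 10 genes, at an adjusted p under 0.05, against 9.16% of 16741 genes. Groups that did not overlap in TMM-scaled CPM were found for 2 of 8 genes for IR in WT kidneys (29.3% of all genes tested), 5 of 10 for IR in Tet2-/- kidneys (56.8%), 1 of 9 for genotype at baseline (18.7%) and 3 of 10 for genotype after IR (36%). With so few genes none of these counts was read as setting the family apart. Ereg was tested only in comparisons that include the Tet2-/- IR libraries, and it was called in each of them. The comparisons share their control libraries.

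The 5 other genes of the family gave little. Nrg4, a ligand of ERBB4, had 3.38 to 6.18 FPKM over the 12 libraries and Erbb4, its receptor, 0.367 to 1.97 FPKM. In WT IR library 1 Nrg4 (6.18 FPKM) was above Hbegf (5.10 FPKM). Epgn, encoding epigen, was at 0.065 FPKM or lower, Nrg2 at 0.134 or lower and Nrg3 at 0.012 or lower. Of these, 3 were tested and 0 called in any comparison by edgeR, at an unadjusted p under 0.05, or by DESeq2.

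Other genes of the pathway were counted in 4 lists by the same rule. Of all genes tested 12.7% were called higher and 11.6% lower for IR in Tet2-/- kidneys, and the counts of these lists are given as descriptions beside those shares. Of 7 genes that act on ligand release (the proteases Adam9, Adam10, Adam12 and Adam17, the ADAM17 carriers Rhbdf1 and Rhbdf2, and Timp3, a secreted inhibitor of such proteases), 1 rose after IR in Tet2-/- kidneys, a share near that of all genes (median log2 fold change of the list 0.50, against 0.04 over all genes tested): Rhbdf2, encoding iRhom2, which carries the sheddase ADAM17 to the cell surface (1.19, SE 0.15, edgeR, adjusted p = 0.000983). Without Tet2-/- IR library 3 the count was 2, Adam12 being added. In WT kidneys 0 were called by edgeR, with 2 at an unadjusted p under 0.05 and 0 by DESeq2, and for genotype after IR 0 were called by edgeR, with 2 at an unadjusted p under 0.05 and 1 by DESeq2.

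Of 18 feedback inhibitors of EGF receptor signalling, 4 rose and 0 fell after IR in Tet2-/- kidneys, beside 12.7% and 11.6% of all genes (median 0.50). Dusp5, an ERK phosphatase, had 0.573 to 0.749 FPKM in the Tet2-/- baseline and 10.1 to 18.8 FPKM in the Tet2-/- IR libraries, a log2 fold change of 4.005 (SE 0.32, edgeR, adjusted p = 0.000192). Socs4 (1.98, SE 0.30, edgeR, adjusted p = 0.00198) promotes loss of EGF receptor, and Spred2 (1.62, SE 0.25, edgeR, adjusted p = 0.00219) restrains RAF activation. Socs4 FPKM was 0.549 to 0.891 in Tet2-/- baseline and 2.42 to 4.36 in Tet2-/- IR libraries. In WT libraries Socs4 was 1.555 to 3.395 at baseline and 1.96 to 3.38 after IR, so its rise in Tet2-/- kidneys started from a lower baseline. The fourth was Dusp4, another ERK phosphatase, which the naming rule leaves out and which is named to complete the count (1.54, SE 0.22, edgeR, adjusted p = 0.00144). Without Tet2-/- IR library 3 these 4 and also Cbl and Spry2 were called, 6 in all. In WT kidneys 0 of 18 were called by edgeR (median -0.05), with 1 at an unadjusted p under 0.05 and 0 by DESeq2. After IR 1 of 18, beside 2.3% of all genes, was higher in Tet2-/- than in WT kidneys, Spry1 (Sprouty 1, 1.32, SE 0.27, edgeR, adjusted p = 0.0318), with 11.01, 6.82 and 6.89 FPKM against 3.28, 4.03 and 2.12. Without WT IR library 3 its log2 fold change was 1.14 (SE 0.29, edgeR, adjusted p = 0.0918), and without WT IR library 1 and Tet2-/- IR library 3, where 49 genes of all were called, it was 1.41 (SE 0.39, edgeR, adjusted p = 0.132). The interaction was called for 3 of the 18, beside 9.16% of all genes, namely Dusp5 (2.77, SE 0.71), Socs4 (1.85, SE 0.51) and Spry1 (1.36, SE 0.36).

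Among 26 adaptors and kinases, 4 rose and 0 fell after IR in Tet2-/- kidneys, where 12.7% of all genes rose, a share close to that of the list (median 0.21). Stat3, a transcription factor downstream of the receptors and of cytokines, had 8.04 to 10.5 FPKM at baseline and 41.4 to 52.0 FPKM after IR (log2 fold change 2.03, SE 0.17, edgeR, adjusted p = 0.00021). Nras (1.66, SE 0.13, edgeR, adjusted p = 0.000195) and Src (1.15, SE 0.14, edgeR, adjusted p = 0.000787) encode signalling proteins next to the receptor, and the fourth gene, Akt1, was past the fold limit by little (1.05, SE 0.13, edgeR, adjusted p = 0.000749). In WT kidneys 0 were called by edgeR, with 7 at an unadjusted p under 0.05 and 1 by DESeq2. After IR 0 of 26 differed by genotype in edgeR, with 10 at an unadjusted p under 0.05, 0 by DESeq2 and 1 by limma on log2(FPKM + 1), while the interaction was called for 2 of 26, near the 9.16% of all genes, Nras (1.11, SE 0.26) and Akt1 (0.74, SE 0.20).

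Of 10 transcripts that ERK signalling induces, 2 rose and 0 fell in WT kidneys (median 0.76), beside 1.46% higher and 0.887% lower of all genes. There, 7 had an unadjusted p under 0.05 by edgeR and 3 were called by DESeq2. Of the same 10, 5 rose and 1 fell in Tet2-/- kidneys (median 1.498), beside 12.7% and 11.6%. Fosl1, encoding the AP-1 subunit FRA1, had 0.116 to 0.238 FPKM in WT baseline and 0.652, 3.85 and 6.07 FPKM in WT IR libraries (log2 fold change 4.34, SE 0.84, edgeR, adjusted p = 0.0465). In Tet2-/- kidneys Fosl1 went from 0.114 to 0.169 FPKM at baseline to 37.5, 22.01 and 23.6 FPKM after IR (7.34, SE 0.33, edgeR, adjusted p = 4.41e-05). The lowest IR library for Fosl1, WT IR 1, had the lowest injury marker level of the IR libraries. Without WT IR library 3 the log2 fold change of Fosl1 in WT kidneys was 3.61 (SE 0.75, edgeR, adjusted p = 0.106), and that of Myc was 2.09 (SE 0.45, edgeR, adjusted p = 0.111). Without Tet2-/- IR library 3, 5 rose and 0 fell in Tet2-/- kidneys, and the call of Egr1 was the one lost.

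Myc, the growth regulator, rose in WT (2.44, SE 0.46, edgeR, adjusted p = 0.0428) and in Tet2-/- kidneys (2.92, SE 0.36, edgeR, adjusted p = 0.000839). Plaur, the urokinase receptor, rose in Tet2-/- kidneys (4.04, SE 0.30, edgeR, adjusted p = 0.000143), and so did the ETS factor Etv4 (3.11, SE 0.43, edgeR, adjusted p = 0.00128). Phlda1, which the naming rule leaves out, was the fifth (2.12, SE 0.25, edgeR, adjusted p = 0.000646). Egr1, an immediate early gene, fell (-1.14, SE 0.36, edgeR, adjusted p = 0.0360), from 44.9, 22.1 and 18.4 FPKM to 21.1, 13.6 and 11.4 FPKM, which overlap before scaling. Its mean was also lower after IR in WT kidneys (9.62 against 47.2 FPKM), as was that of Fos (2.77 against 12.6 FPKM), although edgeR called neither there. Between genotypes after IR 1 of 10 was called higher by edgeR, Etv4 (1.63, SE 0.35, adjusted p = 0.0352), beside 2.3% higher and 3.85% lower of all genes, with 6 at an unadjusted p under 0.05, 4 called by DESeq2 and 1 by limma on log2(FPKM + 1). Without WT IR library 3 the value for Etv4 was 1.68 (SE 0.42, edgeR, adjusted p = 0.0894), and without WT IR library 1 and Tet2-/- IR library 3 it was also 1.68 (SE 0.31, edgeR, adjusted p = 0.0813). In edgeR the interaction was called for 1 of 10, near the 9.16% of all genes, Plaur (2.68, SE 0.70, edgeR, adjusted p = 0.0377). At baseline 0 genes of any of these 4 lists were called by edgeR. At an unadjusted p under 0.05 there were 0 sheddase genes, 2 feedback inhibitors, 1 adaptor or kinase and 2 ERK-induced transcripts, and DESeq2 called 2, both feedback inhibitors. The same Tet2-/- IR libraries had the raised neutrophil markers given above (7 of 7 called higher) and macrophage marker sums (7 genes) of 53.4 to 185 FPKM, against 24.9 to 46.1 in the other 9 libraries, with Cd14, Itgam and Cd68 called higher and Csf1r lower. The part of these cells in the values of Plaur, Stat3 and the other pathway genes was not tested. The ERK-induced transcripts answer to many receptors besides those of the EGF family, and which receptor was active was not measured.

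**Figure D5:**
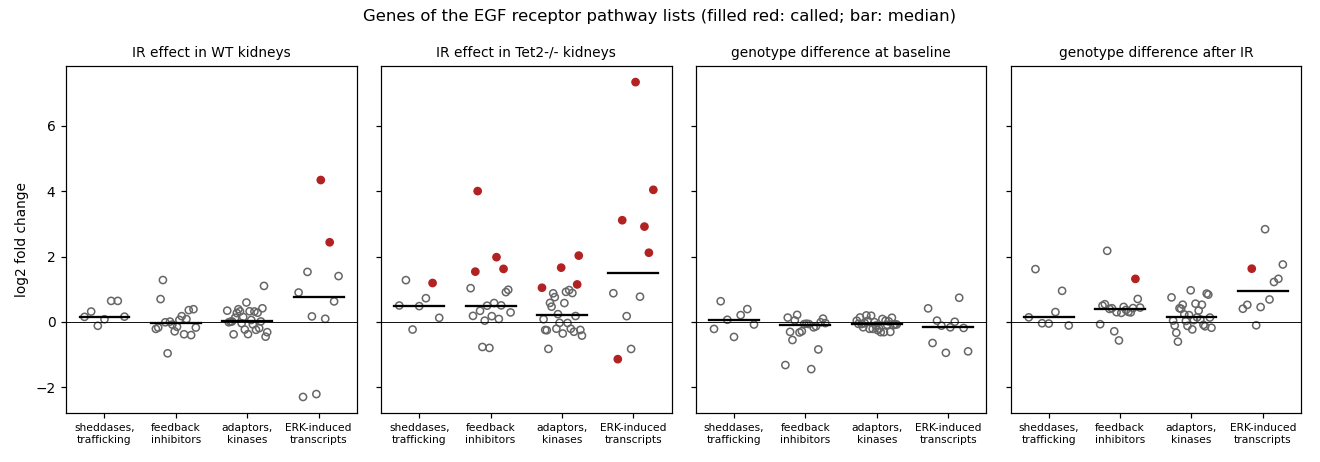
Log2 fold change (y axis) of each gene of 4 pathway lists in 4 comparisons, red and filled where called, with a bar at each list's median. Filled genes are most numerous for IR in Tet2-/- kidneys, up to Fosl1 at 7.34, and there are none at baseline.

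Likeness of pattern was measured for 5 of the genes as the root mean square difference of centred log2(TMM-scaled CPM + 1) over the 12 libraries, against the 12197 genes whose mean FPKM reached 1. The genes nearest to Egf were Slc22a26 (0.440), Slc22a19 (0.556) and Slc22a13 (0.655), beside a standard deviation of 1.96 for Egf itself. Nearest to Hbegf were Jun (0.240), Gadd45b (0.320) and Klf10 (0.372), beside a standard deviation of 0.680. For Areg, Egfr and Erbb3, which vary little on this scale (standard deviations of 0.517, 0.301 and 0.368), the nearest genes were Chka (0.160), Degs1 (0.152) and 5730455P16Rik (0.172). The values describe these libraries and carry no test.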

How the data were processed

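RNA-seq of whole kidneys from 12 mice was analysed. Reads had been aligned by the authors with STAR (mm9), then assigned to RefSeq transcripts with HOMER. Deposited for each transcript were expected counts with no normalization and FPKM. The deposited counts move in steps of 0.5 and 38.7% are not whole, so they were rounded before testing, although whole counts had been assumed in the design. The files hold 34600 transcripts of 24421 symbols, and the transcript with the highest total per symbol was used. Egf and Egfr each have another transcript that shares reads with the one used. Libraries held 51007363 to 107969883 counts on these transcripts. FPKM was used for levels, as deposited.

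Each comparison used its own 6 libraries in edgeR 4.0.16 (R 4.3.3) with TMM scaling, the standard filter on low counts, quasi-likelihood F tests, and p-values adjusted by Benjamini-Hochberg across every gene in the fit. The interaction used all 12 libraries. Calls needed an adjusted p under 0.05 and, except for the interaction, an absolute log2 fold change over 1. SE is the absolute log2 fold change divided by the square root of the F statistic. A fold change smaller than its SE was given no direction. Scripts were tested on simulated data. limma 3.58.1 and DESeq2 1.42.0 served as alternatives. Plots were made in Python 3.11.15 (matplotlib 3.10.9).

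The members, the marker and pathway lists and the tests were chosen with earlier results of these data known. The text names all 10 members, the 5 other family genes and, of each other pathway list, up to 3 called genes per direction and comparison with a mean FPKM of at least 1. Marker lists are given by counts, summed levels and defining markers. P-values measure the spread between these mice. The methods state that the mice differ between groups. Same-numbered WT libraries, baseline against IR, nevertheless shared deviations from the mean of their group, with correlations of 0.379, 0.339 and 0.364, so a fit with the replicate number as a block was run: it left 1 member called and raised the calls over all genes in WT kidneys from 376 to 987. No pair of libraries within a group agreed within sampling noise.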

Additional observations from a re-analysis of the deposited data

Results flagged for a closer look

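Ereg was flagged because its genotype by IR interaction was called. It was high enough to be tested only in comparisons that include the Tet2-/- IR libraries, its highest group. The call carries that selection and was lost when no filter on low counts was used. The interaction was 5.05 on the log2 scale (SE 1.41, edgeR quasi-likelihood test, adjusted p = 0.0476), and over 24 alternatives the adjusted p ran from 0.00885 to 0.723, with the call kept in 9. The 3 Tet2-/- IR libraries had 94, 67 and 21 counts and the 9 others 0 to 26. The highest of the others, WT baseline library 2 with 26 counts, also had an adipocyte marker sum of 135 FPKM, against 60.3 and 277 in the other WT baseline libraries, and the part of this in the interaction was not tested.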

How the results depend on the processing

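Of 47 pairs of a member and a comparison, 33 had a fold change at least as large as its SE. Over their alternatives, 598 values kept direction and side of the threshold, 30 lost the call, 12 gained it and 5 reversed. Egf and Nrg1 stayed called for IR in Tet2-/- kidneys in all 17 alternatives, and Ereg in 15 of 16. Reversed values were those of Erbb2 for IR in Tet2-/- kidneys (0.0296 with library sizes alone, 0.068 and 0.076 with limma on log2(FPKM + 1) and log2(FPKM + 0.1)), of Erbb2 for IR in WT kidneys (0.016 without WT baseline libraries 2 and 3) and of the Ereg interaction (-1.48 without those libraries, which leaves 1 WT baseline library, with 0 Ereg counts). The settings that leave out 2 libraries at once, list values without single libraries, and the other transcript of Egf and Egfr, were chosen after seeing the data.

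For IR in WT kidneys, where 1 member was called, 2 were called with DESeq2, adding Egf, and 0 with adipocyte level as covariate or without WT baseline libraries 2 and 3, with 0 to 1 on leaving out each library. The covariate fit called 0 genes of all and the fit with 1 control 1 gene, so neither bears on the member. For genotype after IR (1 member), 3 were called with DESeq2 and with all 12 libraries in 1 fit, 2 with the replicate block, and 0 with a mean FPKM of at least 1, with limma on log2(FPKM + 1) or without WT IR 1 and Tet2-/- IR 3, with 0 to 1 on leaving out each library. For the interaction (1 member), 0 were called with no filter, a mean FPKM of at least 1, limma on log2(FPKM + 1), adipocyte level as covariate, or either pair of libraries left out, with 0 to 1 on leaving out each library. Without those 2 controls the interaction was called for 10 genes of all, and without WT IR 1 and Tet2-/- IR 3 the genotype difference for 49. A filter at a mean FPKM of 1 removes Ereg. For the others the cause was not tested. For IR in Tet2-/- kidneys 2 to 4 members were called and at baseline 0 under every alternative.

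With the replicate block, Areg for IR in Tet2-/- kidneys (2.06, adjusted p = 0.00984) and Egf for genotype after IR (-2.89, adjusted p = 0.0348) were also called by edgeR. Same-numbered libraries in those comparisons correlated at 0.088 to 0.318 and 0.0122 to 0.375, and at baseline at -0.205 to 0.112, so the numbers were not taken to pair them, and the block changed no other member's call.

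Over all genes, calls for IR in WT kidneys were 376, against 1073 with DESeq2, 631 with all 12 libraries, 987 with the block and 0 with the adipocyte covariate, and for genotype at baseline 2 against 350 with DESeq2. After IR they were 996, against 1747 with DESeq2, 1593 with all 12 libraries and 595 with limma on log2(FPKM + 1). The interaction gave 1534, against 2814 with DESeq2 and 86 with the covariate, and IR in Tet2-/- kidneys 3974, against 2256 with limma on log2(FPKM + 1). Library sizes alone moved the median of all genes by 0.23 (log2) for IR in Tet2-/- kidneys, 0.10 for genotype after IR and 0.14 for the interaction, and the split of higher against lower calls from 2078 and 1896 to 2860 and 1397 in the first and from 633 and 901 to 1129 and 700 in the interaction. With 3 libraries a group and Areg and Ereg at 0 to 168 counts, smaller differences of these ligands were not detectable.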

Other observations

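For IR in Tet2-/- kidneys edgeR called 12.7% of all genes tested higher and 11.6% lower, and the marker counts here are descriptions beside those shares. Among other marker lists, podocyte markers rose in Tet2-/- kidneys after IR in 5 of 5 genes by edgeR, with a summed FPKM of 42.9 to 87.8 in the Tet2-/- IR libraries, 13.7 to 19.1 in the Tet2-/- baseline libraries, 3.23 in WT IR library 3 and 14.7 to 26.3 in the other 5 WT libraries. Of 8 proximal tubule markers 5 fell, with sums of 643 to 882 FPKM in Tet2-/- IR libraries against 1626 to 3007 elsewhere. Of 7 macrophage markers 3 rose and 1 fell. In the same comparison 0 of 5 endothelial, 0 of 6 fibroblast and stromal, 0 of 5 red blood cell and 0 of 2 tested adrenal genes were called by edgeR or DESeq2, with 0, 2, 1 and 0 of them at an unadjusted p under 0.05, and limma on log2(FPKM + 1) called 1 red blood cell gene. In edgeR 1 of 8 collecting duct markers fell, a share near that of all genes, and 1 tested skeletal muscle gene and 1 tested brown adipocyte gene fell. Of 4 tested adipocyte markers 2 rose.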
